A study of Mus musculus with 16 samples.

Results

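RNA bound to chromatin was sequenced in E14TG2a, a male mouse embryonic stem cell line, made to express the histone demethylase KDM4B from a construct, either without an intrinsically disordered region (genotype OE KDM4B del-IDR, 2 libraries) or full-length (OE KDM4B FL, 2 libraries). These 4 libraries were chosen by their labels, out of 16 in a series that made the same pair of constructs for KDM4A, KDM6A and KDM6B. All cells were kept in LIF at 1000 U per ml with the MEK inhibitor PD0325901 at 1 µM and the GSK3 inhibitor CHIR99021 at 3 µM. Every group carried a construct, and cells without one were not analysed here. The sample titles write del-cIDR and the genotype del-IDR, and neither gives the residues removed, the promoter or whether a line was 1 clone. The labels do not say whether the replicates came from separate cultures, so p-values reflect only the spread between libraries, which may be technical.

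KDM4B is a JmjC-domain enzyme that removes methyl groups from lysine 9 of histone H3, a mark of silent chromatin, and from lysine 36, a mark of transcribed gene bodies. Stem cells keep germline genes, retrotransposons and large clusters of tissue-specific genes silent partly through H3 lysine 9 methylation. An intrinsically disordered region is a stretch of protein without a fixed fold. RNA that stays with chromatin is rich in unspliced transcripts and in long noncoding RNAs that act in the nucleus.

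The KDM4B del-IDR libraries held 44122921 and 46508040 gene reads, the FL libraries 39335679 and 36625987, and all 16 libraries 32739117 to 54890756. Repeat reads per 100 gene reads were 83.1 and 84.5 in del-IDR libraries, against 91.4 and 92.1 in FL libraries. The added ERCC RNAs took 0.679% and 0.692% of reads in del-IDR libraries, against 0.578% and 0.589% in FL libraries. Values are reads per 1000000 gene reads (CPM) with TMM factors, log2 fold changes are del-IDR over FL ± standard error, and "rose" or "fell" means higher or lower in del-IDR libraries at an adjusted p under 0.05 in edgeR's quasi-likelihood test. Group values are means ± SD with n = 2.

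Kdm4b itself (ENSMUSG00000024201, chromosome 17, 56633062 to 56709870 on GRCm39, as all positions below) had 92.4 and 85.4 CPM in del-IDR libraries, against 103 and 88.2 CPM in FL libraries. In the 12 libraries with other constructs it had 74.9 to 103 CPM. The groups overlapped with each other and with those libraries, so the counts do not set the construct apart from the endogenous gene. The change in Kdm4b did not pass (-0.10 ± 0.07, adjusted p = 0.24 in edgeR's quasi-likelihood test). It was lower and passed with ERCC scaling (-0.29, adjusted p = 0.00085) and without replicate 2 of the FL group (-0.19, adjusted p = 0.026). Without replicate 1 of that group it was at 0.02 and did not pass. Of its relatives, Kdm4a, which acts on the same lysines, rose (0.20 ± 0.04), with a value of 0.01 that did not pass under scaling by ERCC RNAs. Kdm4c had 196 and 209.5 CPM in del-IDR libraries, against 196 and 208 CPM in FL libraries, and did not pass, though it was at -0.18 and passed as lower with ERCC scaling (adjusted p = 0.012).

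The labelled cell type was checked by markers. The 8 embryonic stem cell markers summed to 1474 and 1418 CPM in del-IDR libraries, against 1909 and 1834 CPM in FL libraries, and 1418 to 2190 CPM in all 16. Of 8 fibroblast markers Col3a1, Postn and Lum had no reads in the 4 libraries, and the list summed to 6.16 and 5.52 CPM in del-IDR libraries, against 5.33 and 5.05 CPM in FL libraries. Primitive endoderm markers summed to 29.9 and 32.7 CPM in del-IDR libraries, against 15.5 and 16.1 CPM in FL libraries, and trophectoderm markers to 25.5 and 24.9 against 15.0 and 15.5 CPM. Over all 16 libraries these sums ran from 15.5 to 49.8 CPM and from 15.0 to 39.8 CPM. For both lineages replicate 1 of the FL group was the lowest of the 16, and the del-IDR libraries lay inside the range. Neural markers summed to 94.9 and 94.1 CPM in del-IDR libraries, against 116 and 119 CPM in FL libraries. In bulk samples fewer cells of a type and less RNA per cell cannot be told apart.

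The chromosome a gene lay on went with how it differed. Of 31057 genes tested, 5784 rose (18.6%) and 5456 fell (17.6%), or 36.2% in all, at a median log2 fold change of 0.0058. Chromosome 6 stood apart: of its 1630 tested genes 100 rose and 687 fell (42.1%), at a median of -0.37, and 75.5% of its genes had a value below 0. Chromosome 8 had 216 rises and 369 falls among 1572 genes and a median of -0.09. Chromosome Y had a lower median than both, -0.62, but over 22 genes, of which 8 fell and 1 rose. Its genes took 0.0406% and 0.0358% of gene reads in del-IDR libraries, against 0.0621% and 0.0511% in FL libraries. On the other autosomes and the X chromosome, medians ran only from -0.02 (chromosome 18) to 0.08 (chromosome 15). Outside chromosomes 6 and 8 there were 27855 genes, of which 5468 rose (19.6%) and 4400 fell (15.8%), at a median of 0.03. The 3202 genes of chromosomes 6 and 8 thus held 316 rises and 1056 falls. With scaling by ERCC RNAs the median of all genes moved to -0.19, and 2869 genes rose and 8591 fell, so that 25.03% of calls were rises in place of 51.5%. Outside chromosomes 6 and 8 that scaling gave 2709 rises and 7212 falls. Both del-IDR libraries lay beyond both FL libraries, in either direction, in 66.8% of all genes tested.

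The libraries of each group were alike in this. Chromosome 6 genes took 4.85% and 4.86% of gene reads in del-IDR libraries, against 6.28% and 6.30% in FL libraries. In relative terms that share was 22.7% lower in del-IDR libraries. The 12 other libraries lay between 4.59% and 5.58%, so both FL libraries were above every other library and both del-IDR libraries were inside their range. For repeat reads the share on chromosome 6 was 5.35% and 5.43% in del-IDR libraries, against 7.41% and 7.47% in FL libraries. Chromosome 8 took 5.00% and 4.92% of gene reads in del-IDR libraries, against 5.33% and 5.26% in FL libraries, 6.27% lower in relative terms. All 4 of these values lay within the 4.88% to 5.39% of the 12 other libraries. Set against the other chromosomes, the median gene of chromosome 6 was at -0.39 in both del-IDR libraries and within 0.0017 of 0 in both FL libraries, where 0 is the mean of the FL pair. An exact permutation test of 2 against 2 libraries cannot go below p = 0.33, so no test was made per chromosome.

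**Figure D1:**
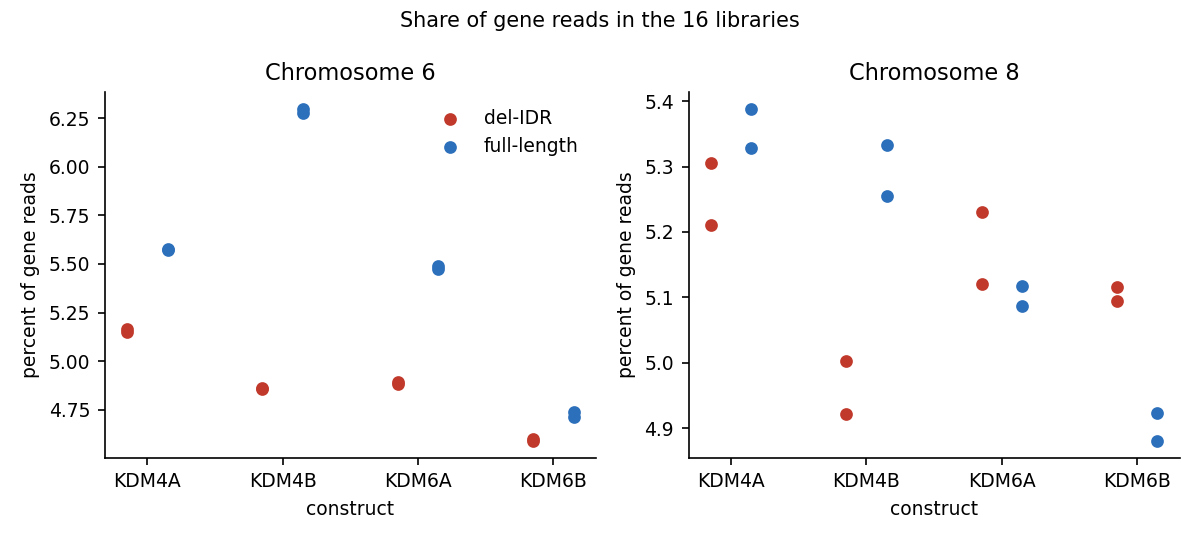
Percent of gene reads on chromosome 6 (left) and chromosome 8 (right) in each of the 16 libraries, by construct, with del-IDR points left of full-length points. The 2 full-length KDM4B libraries were at 6.28% and 6.30% on chromosome 6, above the 4.59% to 5.58% of the libraries with other constructs. The axes do not start at 0.

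The lower values on chromosome 6 were spread along its length and over levels of expression. All of its 15 bins of 10 Mb with at least 20 tested genes had a median between -0.91 and -0.23. All 13 such bins of chromosome 8 lay below 0 as well, but between -0.36 and -0.02. Among genes of at least 50 CPM, 215 of 251 fell on chromosome 6 (85.7%) and 9 rose, while 1299 of 4015 fell and 1350 rose on chromosomes other than 6 and 8. For chromosome 8 the same level held 141 falls and 44 rises among 275 genes. Under 2 CPM, where fewer genes could pass, 76 of 657 genes of chromosome 6 fell and 28 rose. In the other 3 demethylases the chromosome 6 median on deletion was -0.14 (KDM4A), -0.18 (KDM6A) and -0.02 (KDM6B). A test of the KDM4B change against the mean change of those 3 called 559 of the 1630 chromosome 6 genes, 466 of them lower and 93 higher with KDM4B. Over all chromosomes that test called 26.3% of genes, 3912 lower and 4241 higher.

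**Figure D2:**
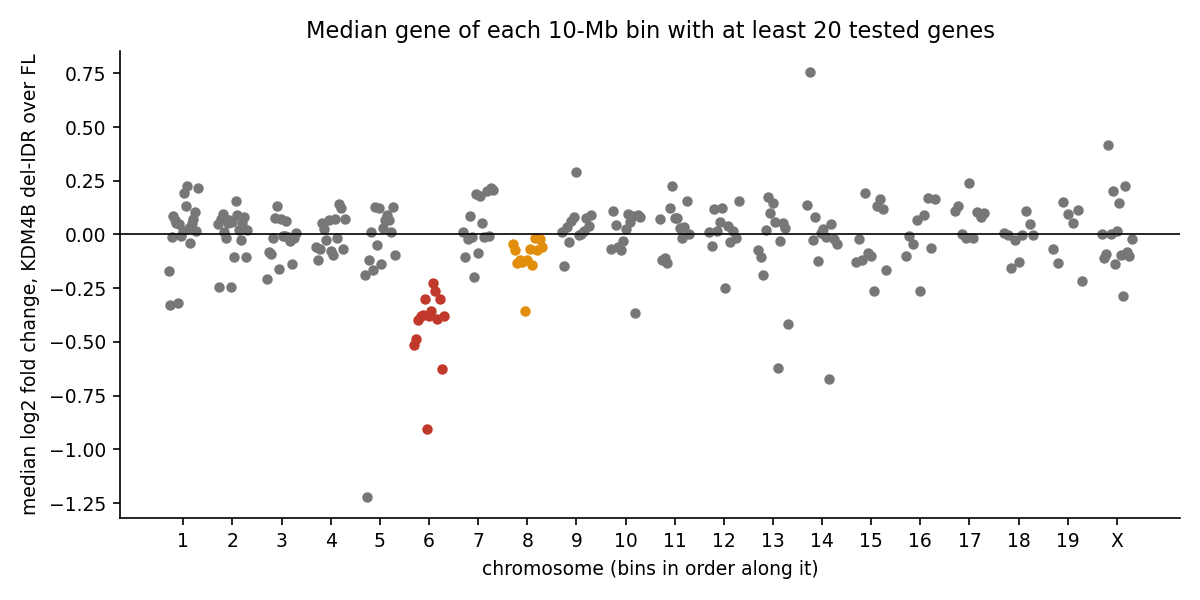
Each point is the median log2 fold change (KDM4B del-IDR over FL, vertical axis) of the genes in a 10-Mb bin with at least 20 tested genes, set out by chromosome (horizontal axis) in order along it. All 15 bins of chromosome 6 lay below -0.2, while single bins of chromosomes 5 and 14 stood farthest from 0 elsewhere.

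Named genes of chromosome 6 show the size of these changes. Atf7ip (ENSMUSG00000030213, 136483165 to 136587860), a partner that stabilises the H3 lysine 9 methyltransferase SETDB1, had 216 and 216 CPM in del-IDR libraries, against 475 and 482 CPM in FL libraries. Pde3a, a cyclic nucleotide phosphodiesterase, had 28.0 and 29.5 CPM in del-IDR libraries, against 189 and 203 CPM in FL libraries. Creb5, a leucine-zipper transcription factor, had 5.78 and 5.52 CPM in del-IDR libraries, against 42.0 and 41.0 CPM in FL libraries. For each of these genes both del-IDR libraries lay below both FL libraries, which the rule that named Pde3a and Creb5 required. The changes were -1.14 ± 0.04 for Atf7ip, -2.77 ± 0.12 for Pde3a and -2.88 ± 0.11 for Creb5. The vomeronasal receptor Vmn1r43 fell further (-3.27 ± 0.32). Kdm3a, another H3 lysine 9 demethylase, fell by 0.68 on the log2 scale to 380 and 373 CPM in del-IDR libraries, against 607 and 604 CPM in FL libraries. Gapdh, the glycolytic enzyme often used for scaling, lies on chromosome 6 too and fell (-0.70 ± 0.06).

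Some chromosome 6 genes rose. Fam13a reached 9.11 and 10.1 CPM in del-IDR libraries, against 3.35 and 3.76 CPM in FL libraries (1.44 ± 0.13). Fbln2, an extracellular matrix protein, reached 10.3 and 9.96 CPM in del-IDR libraries, against 4.74 and 4.18 CPM in FL libraries (1.18 ± 0.12). Pdk4, a kinase that turns off pyruvate dehydrogenase, rose by 0.98 ± 0.11. Neighbours could differ: around Nanog, a pluripotency factor, the genes lie within 122582362 to 122778599. Nanog had 110 and 109 CPM in del-IDR libraries, against 108 and 114 CPM in FL libraries, and did not pass (-0.02 ± 0.04). Beside it Dppa3, a maternal and germline factor, rose (1.19 ± 0.17), while Gdf3, a TGF-beta family ligand (-0.84 ± 0.09), and Slc2a3, a glucose transporter (-0.54 ± 0.03), fell. Nanog, Dppa3 and Gdf3, like Gapdh above and Zfp42 below, were singled out after their values were seen.

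On chromosome 8 the named changes went both ways. Snx20, a sorting nexin, had 16.1 and 15.9 CPM in del-IDR libraries, against 4.32 and 3.79 CPM in FL libraries (1.98 ± 0.11). Ppp1r3b, which targets a phosphatase to glycogen, rose by 1.71 ± 0.10, the matrix protease Mmp2 by 1.39 ± 0.09 and the ion transporter Slc12a3 by 1.36 ± 0.13. Lpl (ENSMUSG00000015568, 69333143 to 69360100), lipoprotein lipase, had 27.1 and 29.2 CPM in del-IDR libraries, against 101 and 104 CPM in FL libraries (-1.86 ± 0.07). The phosphoinositide phosphatase Inpp4b (-2.13 ± 0.22), the protease Tll1 (-1.74 ± 0.17) and the growth factor Vegfc (-1.39 ± 0.11) fell as well. The pluripotency marker Zfp42, also on chromosome 8, fell to 600.3 and 556 CPM in del-IDR libraries, against 942 and 875 CPM in FL libraries (-0.65 ± 0.06).

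Gene classes differed too, with and without chromosomes 6 and 8. Of 17031 protein-coding genes other than receptor, immunoglobulin and T-cell receptor genes, 4701 rose (27.6%) and 3466 fell (20.4%), at a median of 0.06. Outside chromosomes 6 and 8 it was 4469 and 2796 of 15335 (median 0.08). Of all genes 18.6% rose and 17.6% fell. Under ERCC scaling that class had a median of -0.13, with 2236 rises and 5636 falls. On chromosome 6 alone, 63 of 806 rose and 420 fell (52.1%). Long noncoding genes passed less often than all genes in both directions, with 693 falls (13.8%) and 508 rises (10.1%) of 5035. Outside chromosomes 6 and 8 they counted 574 falls and 466 rises of 4487. Pseudogenes also passed less often in both directions, with 533 falls (13.5%) and 269 rises (6.80%) of 3954. Outside those chromosomes it was 437 and 248 of 3593. TEC genes, transcripts still to be tested by experiment, counted 427 falls (21.3%) and 152 rises (7.57%) of 2008. Outside those chromosomes it was 321 and 139 of 1705. Small RNA genes rarely passed, with 36 falls and 24 rises of 923. Their median of 0.05 was -0.13 with ERCC scaling, and relative to all genes it was -0.16 without replicate 2 of the del-IDR group. Passing went with level. Outside chromosomes 6 and 8, 33.6% of genes of at least 50 CPM rose and 32.4% fell, against 7.08% and 5.67% under 2 CPM. Classes were not matched for level, and whether their lower shares of calls come from fewer reads was not tested.

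Odorant, vomeronasal and trace amine receptor genes, which act in sensory neurons, were far below the median of all genes. Of 1866 such genes 301 were tested, of which 120 fell (39.9%) and 12 rose (3.99%), at a median of -1.17. Members could enter the test through reads in 1 group only, so these values do not cover the untested ones. Outside chromosomes 6 and 8 the counts were 106 and 12 of 275 and the median -1.12. Their reads summed to 369 and 373 CPM in del-IDR libraries, against 956 and 972 CPM in FL libraries. Of 38 immunoglobulin and T-cell receptor genes tested 15 fell and 3 rose, at a median of -1.15. Among the 38, 4 had no reads in 1 group and more than 3 in the other. Which of these 2 classes had the lower median depended on the setting, with -1.37 for receptor genes and -1.74 for immunoglobulin and T-cell receptor genes under ERCC scaling. Counts ignored strand and near-identical receptor genes share sequence, so single members of these families are uncertain.

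**Figure D3:**
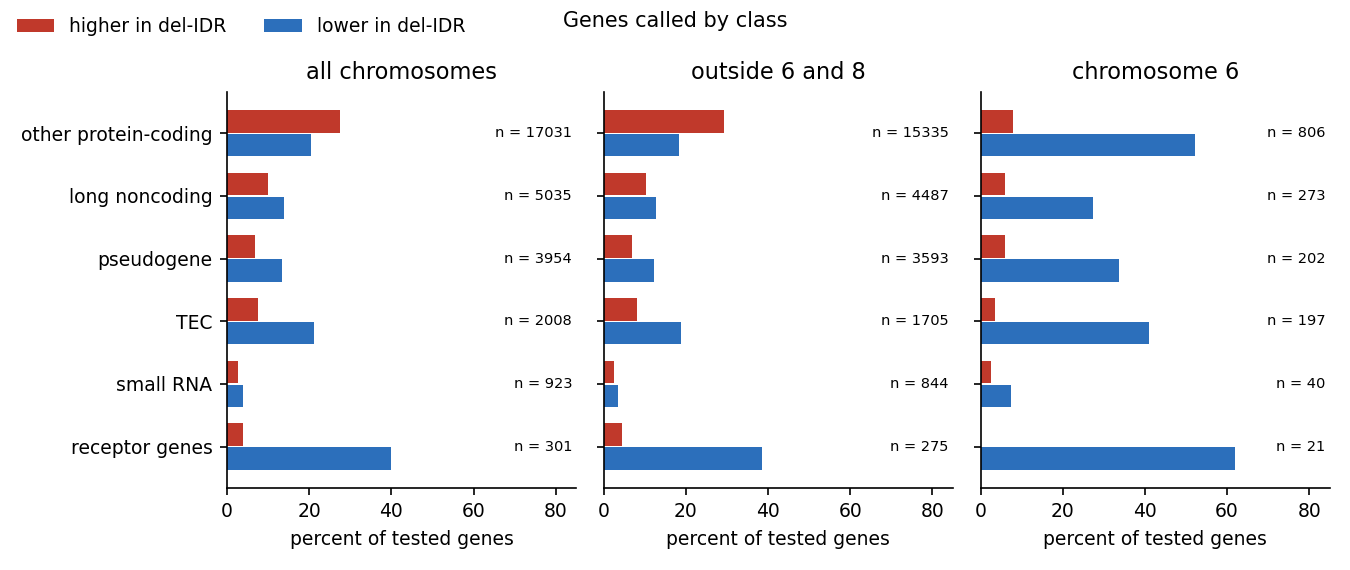
Percent of tested genes of each class that rose (upper bar of each pair) or fell (lower bar) in KDM4B del-IDR against FL libraries, for all chromosomes, outside chromosomes 6 and 8, and for chromosome 6, with the number tested. Receptor genes fell in 39.9% of cases over all chromosomes and in 38.5% outside chromosomes 6 and 8.

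Some changed genes lay side by side. Runs of at least 4 neighbouring tested genes that all rose, or all fell, by at least 2-fold numbered 14 and 33. They held 63 of the 1223 genes that rose by at least 2-fold and 185 of the 1368 that fell by as much. The longest run of falls was 18 genes from Olfr1423 to Olfr1438-ps1 (chromosome 19, 12009151 to 12313274), 16 of them receptor genes, with values of -5.69 to -2.02. Within it Olfr1426 had 3.65 and 3.03 CPM in del-IDR libraries, against 29.4 and 27.2 CPM in FL libraries. Of 170 repeat copies tested in that interval 111 fell and 0 rose. A run of 15 genes at the immunoglobulin lambda locus (chromosome 16, 18870082 to 19132814) had a median of -2.50, with 139 of 198 repeat copies falling. An 8-gene run from Olfr360 to Olfr366 (chromosome 2, 36955758 to 37114518) had a median of -5.08. Olfr365 there had 0.865 and 0.783 CPM in del-IDR libraries, against 28.4 and 29.9 CPM in FL libraries. On deletion in KDM4A the medians of these 3 runs were -3.87, -4.56 and -6.71, and on deletion in KDM6A 0.32, 0.66 and 1.49. Counting without strand lets genes and repeats of a run share reads, so they are not separate observations.

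The longest run of rises was 8 genes from Gfra1 to Hspa12a and an unnamed neighbour (chromosome 19, 58224036 to 58932086), with values of 1.30 to 5.95. It holds Gfra1, a receptor for the neurotrophic factor GDNF, the pancreatic lipase genes Pnlip and Pnliprp2, and Ccdc172. Ccdc172 had 13.3 and 13.3 CPM in del-IDR libraries, against 2.22 and 1.95 CPM in FL libraries (2.67 ± 0.13). Of 199 repeat copies there 41 rose and 0 fell. At chromosome 5, 138340223 to 138389856, a run of 6 began with Pvrig, an inhibitory receptor of lymphocytes. Pvrig had 9.40 and 11.7 CPM in del-IDR libraries, against 2.17 and 1.74 CPM in FL libraries (2.43 ± 0.15), and 24 of 36 repeat copies in the run rose. On chromosome 13 a run of 4 held Ntrk2, the receptor for the neurotrophin BDNF. On chromosome 17 a run of 4 ended with Vegfa, an angiogenic growth factor, which reached 145 and 149 CPM in del-IDR libraries, against 75.3 and 71.0 CPM in FL libraries (1.01 ± 0.04).

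Xlr and Rhox genes, both X-linked clusters, rose together. Xlr genes are a mouse family active in lymphoid and germ cells, and Rhox genes encode homeobox factors of the reproductive tract and placenta. Of 14 Xlr genes listed 11 were tested, 9 rose and 0 fell, at a median of 1.89 against 0.0058 for all genes. Of 42 Rhox genes 12 were tested, 9 rose and 0 fell, at a median of 1.56. The rises numbered 8 and 8 with ERCC scaling. The 11 Xlr genes summed to 38.3 and 37.0 CPM in del-IDR libraries, against 8.21 and 6.79 CPM in FL libraries. The 12 Rhox genes summed to 18.5 and 18.1 CPM in del-IDR libraries, against 4.52 and 5.76 CPM in FL libraries. A gene tested only because 1 group had reads had to differ, so these counts do not cover the untested members. The promoters of Xlr3a and its near copy Xlr3b, of Xlr4a and of Rhox5 are shown because these are the members with the smallest p in their clusters. They run from 250 bases before to 50 after the start of the gene (RefSeq, GRCm38.p6), on the gene's strand, and capitals mark CG, the site of DNA methylation in mammals.
Xlr3a, chrX:73097046-73097345, minus strand: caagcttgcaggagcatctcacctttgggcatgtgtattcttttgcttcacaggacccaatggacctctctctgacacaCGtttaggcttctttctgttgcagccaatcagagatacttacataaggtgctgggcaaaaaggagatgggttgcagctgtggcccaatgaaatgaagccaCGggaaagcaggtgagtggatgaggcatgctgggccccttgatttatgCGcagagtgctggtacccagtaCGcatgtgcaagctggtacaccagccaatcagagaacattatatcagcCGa
Xlr3b, chrX:73191929-73192228, plus strand: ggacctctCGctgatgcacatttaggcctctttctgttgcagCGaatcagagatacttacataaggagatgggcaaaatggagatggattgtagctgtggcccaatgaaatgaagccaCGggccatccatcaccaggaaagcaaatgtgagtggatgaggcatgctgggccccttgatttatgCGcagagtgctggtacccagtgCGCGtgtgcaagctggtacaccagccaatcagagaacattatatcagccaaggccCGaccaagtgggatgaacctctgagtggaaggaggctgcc
Xlr4a, chrX:73082458-73082757, minus strand: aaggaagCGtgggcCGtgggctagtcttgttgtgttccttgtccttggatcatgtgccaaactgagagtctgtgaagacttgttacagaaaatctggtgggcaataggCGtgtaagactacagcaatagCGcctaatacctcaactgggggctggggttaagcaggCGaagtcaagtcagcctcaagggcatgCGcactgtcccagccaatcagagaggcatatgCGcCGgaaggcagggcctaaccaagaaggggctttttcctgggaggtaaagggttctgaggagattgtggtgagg
Rhox5, chrX:37754358-37754657, plus strand: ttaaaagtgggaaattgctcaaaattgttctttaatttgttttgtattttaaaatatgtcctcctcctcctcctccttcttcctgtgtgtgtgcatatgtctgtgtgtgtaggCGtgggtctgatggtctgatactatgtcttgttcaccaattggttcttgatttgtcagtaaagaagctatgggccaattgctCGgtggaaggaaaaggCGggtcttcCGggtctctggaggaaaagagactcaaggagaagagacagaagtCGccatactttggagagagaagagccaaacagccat
They hold 5, 7, 8 and 5 CG, where the median of 27025 promoters of this length is 7, and 61.7%, 52.3%, 49.0% and 61.7% of those promoters hold at least as many. Promoters were at hand for 10 Xlr genes, with 1 to 16 CG, and for 7 Rhox genes, with 0 to 12.

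Xlr3a (ENSMUSG00000057836, chromosome X, 72129899 to 72140701 on GRCm39) averaged 16.6 ± 0.54 CPM in del-IDR libraries, against 2.41 ± 0.5 CPM in FL libraries (SD), a log2 change of 2.78 ± 0.11. Xlr3b had 9.53 and 8.41 CPM in del-IDR libraries, against 1.37 and 2.08 CPM in FL libraries (2.38 ± 0.18). Xlr4a had 4.15 and 3.53 CPM in del-IDR libraries, against 1.22 and 0.842 CPM in FL libraries (1.89 ± 0.23). Rhox5, the founding member of its cluster, had 6.85 and 7.43 CPM in del-IDR libraries, against 1.07 and 1.34 CPM in FL libraries (2.56 ± 0.17). In all 4 genes both del-IDR libraries lay above both FL libraries, which a rule that named Xlr3a required. Rhox13 rose by 1.64 ± 0.18 and Rhox1 by 1.02 ± 0.30. Xlr genes are close copies of each other, so a read of one may be placed on another or left out.

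Germline genes that DNA methylation silences in other tissues also leaned up. Of 35 genes, all tested, 22 rose (62.9%) and 4 fell (11.4%), at a median of 0.68. Outside chromosomes 6 and 8 it was 17 and 3 of 27. Of all genes 18.6% rose and 17.6% fell. Meioc, needed for meiotic prophase, averaged 40.7 ± 1.1 CPM in del-IDR libraries, against 13.8 ± 0.34 CPM in FL libraries (SD), a log2 change of 1.56 ± 0.07. Dazl, a germ cell RNA-binding protein, had 18.3 and 20.9 CPM in del-IDR libraries, against 8.92 and 8.89 CPM in FL libraries (1.14 ± 0.10). The meiotic cohesin Smc1b rose by 0.96 ± 0.06, and the piRNA pathway genes Mov10l1 and Piwil4 by 1.09 and 1.04. Of the 4 falls, 3 lay outside chromosomes 6 and 8. Among them Rpl10l, a ribosomal protein gene on chromosome 12, had 29.25 and 29.33 CPM in del-IDR libraries, against 60.9 and 57.7 CPM in FL libraries (-1.02 ± 0.07). Stk31, a testis kinase on chromosome 6, dropped to 31.4 and 32.8 CPM in del-IDR libraries, against 78.8 and 81.6 CPM in FL libraries (-1.32 ± 0.09).

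Genes of the 2-cell embryo, which a small share of stem cells switches on, went the other way. Of 31 tested, none of them on chromosome 6 or 8, 17 fell (54.8%) and 1 rose (3.23%). Of all genes 17.6% fell and 18.6% rose. Zscan4e had 34.9 and 33.1 CPM in del-IDR libraries, against 98.7 and 103 CPM in FL libraries (-1.57 ± 0.06). Zscan4a and Zscan4d fell by 1.68 and 1.79 on the log2 scale, but the Zscan4 genes are near-identical and reads can be split among them. Outside that cluster Tdpoz3 (-1.65 ± 0.25), Pramel6 (-1.26 ± 0.12) and Usp17le (-1.25 ± 0.10) fell.

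**Figure D4:**
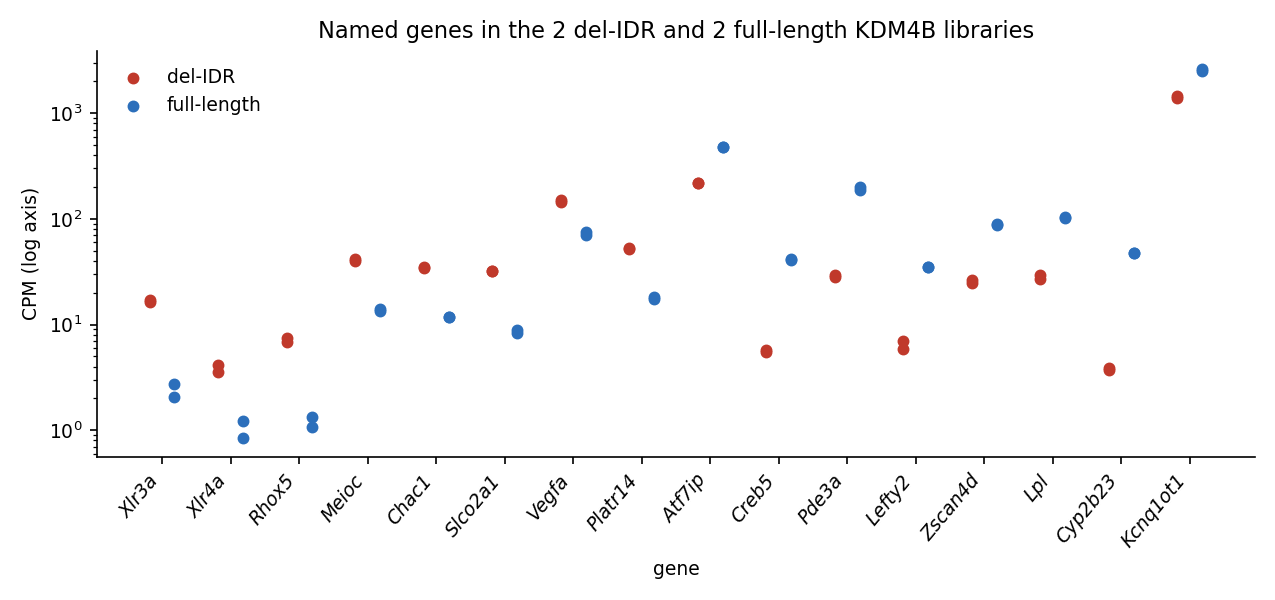
CPM (log axis) of 16 named genes in the 2 KDM4B del-IDR libraries (left point pair of each gene) and the 2 FL libraries (right pair). Xlr3a, Xlr4a, Rhox5, Meioc, Chac1, Slco2a1, Vegfa and Platr14 were higher in both del-IDR libraries and the other 8 genes lower. Genes named for large changes had to have groups that did not overlap, as was so for 66.8% of all tested genes.

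Pluripotency genes mostly fell by small steps. Of 28 naive pluripotency genes 18 fell (64.3%) and 6 rose (21.4%), at a median of -0.22, and 15 and 5 of 23 outside chromosomes 6 and 8. Of all genes 17.6% fell and 18.6% rose. Among genes of at least 50 CPM outside those chromosomes, 32.4% fell and 33.6% rose. Dppa2, an activator of early embryonic genes, had 32.1 and 31.7 CPM in del-IDR libraries, against 67.5 and 67.9 CPM in FL libraries (-1.09 ± 0.07). Klf5 fell by 0.67 and Tbx3 by 0.57 on the log2 scale. Of 20 formative and primed epiblast genes 9 fell (45%) and 3 rose (15%). Lefty2, an inhibitor of the TGF-beta ligand Nodal and a target of its signal, had 6.94 and 5.90 CPM in del-IDR libraries, against 34.7 and 35.2 CPM in FL libraries (-2.45 ± 0.10). Lefty1, Nodal and Myc were looked up after their values were seen. Lefty1, a close relative of Lefty2, fell by 2.30 on the log2 scale. Nodal had 19.9 and 20.5 CPM in del-IDR libraries, against 22.9 and 23.3 CPM in FL libraries, and did not pass (-0.19 ± 0.08, adjusted p = 0.063 in edgeR's quasi-likelihood test). Myc, a growth regulator downstream of LIF, had 0.569 and 0.763 CPM in del-IDR libraries, against 4.15 and 3.73 CPM in FL libraries (-2.56 ± 0.28). Among 17 LIF and STAT3 targets 8 rose and 6 fell, or 2 and 8 with ERCC scaling, with Socs2, a feedback inhibitor, falling by 0.93 and the early gene Fos rising by 1.39 on the log2 scale.

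Of 15 trophectoderm genes 11 rose and 2 fell (median 1.06), and of 20 primitive endoderm genes 9 rose and 2 fell (median 0.61). Rhox6 and Rhox9 are in the trophectoderm list as well as among the Rhox genes. The 20 primitive endoderm genes did not rise in sum, with 1604 and 1522 CPM in del-IDR libraries, against 1628 and 1569 CPM in FL libraries. Lamc1, a laminin subunit and the member with the smallest p, fell to 596 and 568 CPM in del-IDR libraries, against 768 and 743.5 CPM in FL libraries (-0.38 ± 0.03). Sparc, a matrix protein, fell by 0.26 on the log2 scale, and among trophectoderm genes Tead4 fell by 0.33 and Tfap2a by 0.63. Col4a2, a basement membrane collagen, rose to 121 and 109.9 CPM in del-IDR libraries, against 80.9 and 77.1 CPM in FL libraries (0.54 ± 0.05). Esx1, a placental homeobox gene, had 3.67 and 2.27 CPM in del-IDR libraries, against 0.953 and 0.894 CPM in FL libraries (1.68 ± 0.23). Eomes, a trophoblast and mesendoderm factor, had 8.67 and 7.73 CPM in del-IDR libraries, against 3.08 and 3.92 CPM in FL libraries (1.23 ± 0.14). Dab2, an endocytic adaptor of primitive endoderm, rose by 1.10 ± 0.10 and Gata6, its defining factor, by 1.58 ± 0.26. The 15 trophectoderm genes summed to 100 and 96.4 CPM in del-IDR libraries, against 92.5 and 86.1 CPM in FL libraries. The shorter marker sums given above rose for both lineages, unlike the sum of the 20 primitive endoderm genes. The part of such cells in these results was not tested. Mesendoderm genes showed 3 rises (18.8%) and 2 falls (12.5%) of 16, where 18.6% and 17.6% of all genes rose and fell. Neural genes showed 2 rises (11.8%) and 4 falls (23.5%) of 17, with Stmn2 falling by 1.16 on the log2 scale. Relative to all genes, the neural median changed sign with ERCC scaling and without replicate 2 of the FL group.

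Genes of H3 lysine 9 methylation and histone lysine demethylase genes fell more often than they rose, with and without chromosomes 6 and 8. Of 26 genes of H3 lysine 9 methylation and heterochromatin 15 fell (57.7%) and 4 rose (15.4%), at a median of -0.18. Of all genes 17.6% fell and 18.6% rose. Outside chromosomes 6 and 8 the list counted 13 falls and 4 rises of 24. Besides Atf7ip, the methyltransferase Suv39h1 had 36.1 and 35.8 CPM in del-IDR libraries, against 61.4 and 60.9 CPM in FL libraries (-0.77 ± 0.06), and Cbx5, which encodes HP1 alpha, fell by 0.52 ± 0.04. Of 25 histone lysine demethylase genes 10 fell (40%) and 2 rose (8%), or 8 and 2 of 22 outside chromosomes 6 and 8. Of 15 genes of H3 lysine 36 methylation 6 fell and 4 rose, but 4 and 4 of 12 outside chromosomes 6 and 8. Among them the methyltransferase Nsd1 fell by 0.41 on the log2 scale. Polycomb and MLL complex genes split into 13 rises and 14 falls of 42, or 13 and 9 of 36 outside chromosomes 6 and 8, with Ezh2, Rybp, Phc1, Pcgf1 and Aebp2 among the falls on chromosome 6. Epop fell by 1.06 on the log2 scale.

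Chromatin-retained long noncoding RNAs fell in 15 of 27 cases (55.6%) and rose in 4 (14.8%), where 17.6% of all genes fell and 18.6% rose. Kcnq1ot1, which silences an imprinted domain, had 1409 and 1466 CPM in del-IDR libraries, against 2532 and 2612 CPM in FL libraries (-0.84 ± 0.03). Neat1, the paraspeckle scaffold, had 655 and 662 CPM in del-IDR libraries, against 1184 and 1228 CPM in FL libraries (-0.87 ± 0.03). Xist fell by 1.11 and its activator Jpx by 2.09 on the log2 scale. Xist overlaps its antisense Tsix, and counting without strand cannot tell them apart. Platr14, a stem cell noncoding RNA, rose to 52.5 and 51.6 CPM in del-IDR libraries, against 18.1 and 17.5 CPM in FL libraries (1.54 ± 0.06). The pair H19 and Airn, imprinted noncoding RNAs, rose by 1.47 and 0.59.

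Metabolic and stress lists were mixed, where 18.6% of all genes rose and 17.6% fell. Chac1, a glutathione-degrading enzyme induced by ATF4, had 35.1 and 34.6 CPM in del-IDR libraries, against 11.7 and 11.8 CPM in FL libraries (1.57 ± 0.09). Of 27 ATF4 and unfolded-protein-response genes 14 rose (51.9%) and 3 fell (11.1%), or 11 and 7 with ERCC scaling. Of 28 p53 targets 14 rose (50%), Plk2 by 0.69 ± 0.05, and 4 fell (14.3%), but 9 rose and 10 fell with ERCC scaling. Hypoxia-induced genes counted 14 rises and 7 falls of 28, at a median of 0.16 that became -0.03 with ERCC scaling. Of their 7 falls, Gapdh, Kdm3a, Slc2a3 and Hk2 lie on chromosome 6, and outside chromosomes 6 and 8 the counts were 14 and 3 of 22. Ribosomal protein genes rose in 68 of 88 cases and fell in 3, Rplp1 reaching 160 and 152 CPM in del-IDR libraries, against 87.1 and 90.7 CPM in FL libraries. With ERCC scaling 35 rose and 10 fell. Mitochondrially encoded genes rose in 10 of 13 cases, 6 with ERCC scaling, mt-Co1 by 0.46 ± 0.03. Reads of the mitochondrial chromosome made up 0.225% and 0.258% of gene reads in del-IDR libraries, against 0.170% and 0.192% in FL libraries. Mitotic genes rose in 19 of 28 cases and fell in 1, at a median of 0.17 that became -0.02 with ERCC scaling, where 4 rose and 7 fell.

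Further gene families gave mixed counts, where 18.6% of all genes rose and 17.6% fell. Of 36 clustered protocadherin genes, which label neurons, 16 fell (44.4%) and 0 rose. Pcdhgb6 fell to 6.39 and 6.81 CPM in del-IDR libraries, against 15.0 and 14.3 CPM in FL libraries. These transcripts share 3' exons, so their counts are not independent. Of 36 Hox genes 6 fell and 1 rose, a share of falls near the 17.6% of all genes. Of 65 histone genes 22 fell (33.8%) and 2 rose (3.08%), with Hist1h1b, a linker histone, among the falls (-0.65 ± 0.05). Zinc finger genes named Zfp split into 105 rises and 82 falls of 365, or 50 and 139 with ERCC scaling, and Zfp773 had 29.2 and 30.8 CPM in del-IDR libraries, against 6.87 and 6.58 CPM in FL libraries. Collagen and laminin genes rose in 18 of 52 cases and fell in 8, with a median of 0.17 that became -0.02 with ERCC scaling. Cyp2b23, a cytochrome gene, had 3.90 and 3.73 CPM in del-IDR libraries, against 47.8 and 47.7 CPM in FL libraries (-3.64 ± 0.13). Fcrl5, an Fc receptor-like gene of B cells, fell to 1.41 and 1.34 CPM in del-IDR libraries, against 25.8 and 25.6 CPM in FL libraries. Slco2a1, a prostaglandin transporter, rose to 32.5 and 32.1 CPM in del-IDR libraries, against 8.79 and 8.34 CPM in FL libraries.

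Away from chromosome 6, the bins farthest from 0 were on chromosomes 5 and 14. In the bin from 10 to 20 Mb of chromosome 5, 25 of 47 genes fell and 0 rose (median -1.22), and gene models made up 16 of the falls and 32 of the genes tested. In the bin from 10 to 20 Mb of chromosome 14, 51 of 153 genes rose and 9 fell (median 0.76), and gene models made up 44 of the rises and 122 of the genes tested. Many of these models are near copies of each other, so their reads are hard to place.

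The KDM4B change was compared with the other demethylases. The test against the mean change of KDM4A, KDM6A and KDM6B called 8153 genes (26.3%), 4241 higher and 3912 lower with KDM4B. Of the genes that rose or fell with KDM4B, 6413 (57.1%) were among them. The KDM4A comparison uses other libraries, fitted together with these. Of the 5784 KDM4B rises 3720 (64.3%) were also rises with KDM4A, or 48.7% of the 7638 rises there, which are 24.6% of all genes. Of the 5456 falls 3437 (63.0%) were shared, or 42.8% of the 8034 KDM4A falls, which are 25.9% of all genes. Outside chromosomes 6 and 8 the shared shares of the KDM4B lists were 64.1% and 65.6%. With KDM6A the shares were 6.05% of rises and 6.65% of falls, or 13.6% and 13.5% of the KDM6A lists, where 8.30% and 8.65% of all genes rose and fell. Of the KDM4B rises 1411 (24.4%) fell with KDM6A, and of the falls 1285 (23.6%) rose there. With KDM6B 16.5% of the KDM4B rises and 17.3% of the falls were shared, or 31.0% and 28.3% of the KDM6B lists, where 9.89% and 10.7% of all genes rose and fell. Of the KDM4B rises 12.5% fell with KDM6B, and of the falls 15.4% rose there. No test of these overlaps was made.

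Repeats were read per copy, each a single insertion in the genome. Many transposons are silenced by H3 lysine 9 methylation. Of 728423 copies tested, 7654 rose (1.05%) and 26751 fell (3.67%), at a median of -0.13. Copies were scaled by the library sizes of the genes. The lower number of repeat reads per gene read in del-IDR libraries therefore enters these counts. Leaving out any 1 of the 4 libraries, del-IDR or FL, left 3303 to 3608 rises and 12369 to 14536 falls. Outside chromosomes 6 and 8 the counts were 7297 and 20065 of 647720 (median -0.09). On chromosome 6, 4871 of 41819 copies fell (11.6%) and 112 rose, at a median of -0.53. Chromosome 8 had 1815 falls and 245 rises of 38884 (median -0.25). Outside gene spans chromosome 6 had 925 falls (13.5%) and 30 rises among 6853 copies (median -0.67). Such copies outside chromosomes 6 and 8 fell in 7.06% of cases. Inside gene spans the shares that fell were 11.3% on chromosome 6 and 2.90% over all chromosomes, a wider contrast. Outside gene spans on all chromosomes 9133 of 121532 fell and 2013 rose.

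Long retroviral copies of the ERVL family, which in mouse includes the 2-cell-stage element MERVL, fell almost throughout. Of 614 ERVL copies of at least 5 kb, 579 fell (94.3%) and 0 rose, at a median of -0.89. Outside chromosomes 6 and 8 it was 533 of 566, and outside gene spans 359 of 381. Reads on these copies came to 3029 and 2897 per 1000000 gene reads in del-IDR libraries, against 5560 and 5190 in FL libraries, 0.551 times as many in del-IDR libraries. The 12 libraries with other constructs ranged from 1328 to 6442. Of 14904 shorter ERVL copies 797 fell and 202 rose. Since long copies are nearly alike, reads that match several were left out by the mapping quality minimum of 30.

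Copies of the retrotransposon L1 of at least 5 kb fell in 1649 of 11465 cases and rose in 36 (median -0.48), and in 1442 and 33 of 10239 outside chromosomes 6 and 8. Their reads came to 21368 and 21659 per 1000000 gene reads in del-IDR libraries, against 30854 and 29873 in FL libraries. Of 100750 shorter L1 copies 6215 fell and 1109 rose. Of 43072 ERVK copies 3203 fell and 797 rose. Among 1151 ERVK copies of at least 5 kb, 74 fell and 9 rose (median -0.52). Reads on long copies were 0.709 times as many in del-IDR libraries for L1 and 0.682 times for ERVK. In FL libraries 12748 long L1 copies averaged 30364 reads per 1000000 gene reads in sum, 1217 long ERVK copies 2796 and 616 long ERVL copies 5375. Reads per copy thus differed between families, so shares of copies called are not like for like. B2 elements, short and often within introns, fell in 2309 and rose in 1238 of 109296 cases, but in 330 and 340 of 14788 outside gene spans.

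**Figure D5:**
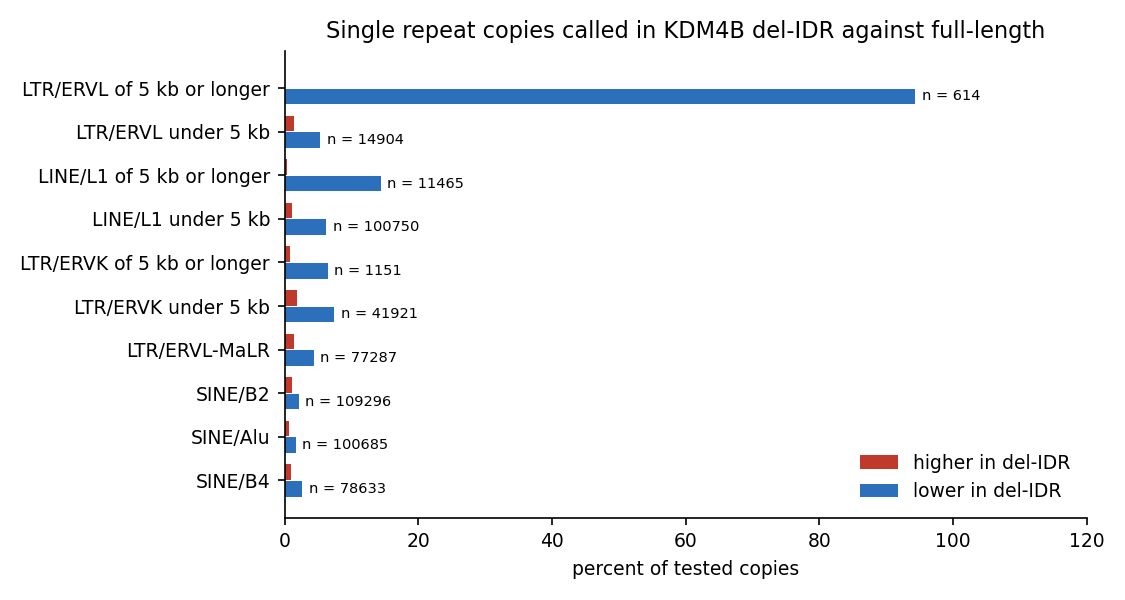
Percent of tested repeat copies of each family and length that rose (upper bar) or fell (lower bar) in KDM4B del-IDR against FL libraries. ERVL copies of at least 5 kb fell in 94.3% of cases, and no other set shown exceeded 14.4%. Sets differ in reads per copy, so these shares are not like for like.

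Summed over families and scaled among the 60 families tested, 6 rose (10.0%) and 8 fell (13.3%). L1 fell by 0.17, ERVL by 0.17, satellites by 0.21 and ERV1 by 0.16 on the log2 scale. SINE families Alu (0.06 ± 0.02) and B2 (0.07 ± 0.02) rose, but both were at -0.12 and -0.11 when scaled by gene reads, and below 0 with ERCC scaling. Scaled by gene reads, 34 families fell and 1 rose. Leaving out any 1 of the 4 libraries left 0 to 3 rises and 5 to 7 falls among the families.

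Single copies changed by more. An L1 copy of 3428 bases on the unplaced scaffold GL456239.1 had 6 and 4 reads in del-IDR libraries, against 529 and 508 in FL libraries (-6.96 ± 0.35). A copy of an L1-dependent retroposon on chromosome 4, 96081782 to 96082815, had no reads in del-IDR libraries, against 165 and 160 in FL libraries, at least 133-fold lower in del-IDR libraries against a floor of 3 reads over the group. An ERVK copy on chromosome 10, 22473174 to 22473970, had 213 and 162 reads in del-IDR libraries, against 14 and 14 in FL libraries (3.44 ± 0.30). An L1 copy on chromosome 5, 138379017 to 138380327, within the run that begins with Pvrig, had 105 and 123 reads in del-IDR libraries, against 4 and 10 in FL libraries. An Alu copy on chromosome 2, 130130394 to 130130540, passed because of 1 library: it had 199 and 11 reads in del-IDR libraries, against 5 and 5 in FL libraries, and its adjusted p was 0.89 without replicate 1 of the del-IDR group. Bounds cover counting error only, and reads of a pair were each counted, so they may be too strong.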

How the data were processed

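Read counts per gene and per single repeat copy were deposited as whole numbers. Per the file headers, they were made by featureCounts 2.0.3 on GRCm39 with a mapping quality minimum of 30, without strand and with each read of a pair counted, and the replicates were not pooled. Per the labels, ribosomal RNA was depleted and a stranded kit was used. The gene table held 56941 genes and 92 ERCC RNAs, and 52000 genes had an entry in the M21 annotation that gave their class.

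Genes with enough reads by edgeR's filterByExpr (minimum count 10) were fitted over all 16 libraries in 8 groups, with TMM factors and 8 residual degrees of freedom, by edgeR 4.0.16 (quasi-likelihood test, R 4.3.3). P-values were adjusted over all genes by the Benjamini-Hochberg method, with calls at 0.05. Repeat copies with at least 5 reads in 2 libraries that passed the same filter were fitted in the same groups. For these copies the library sizes were those of the genes, and the dispersion was the trend over copies. Sums per family were fitted as the genes were, with TMM factors taken over families. The KDM4B change was tested against the mean change of the other 3 demethylases. The scripts were tested on simulated data.

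The libraries, the 37 gene lists and the rules were chosen with earlier results of these data known. Named genes were the largest changes by level, chromosome and class, up to 3 of smallest p per list, and those most different from the other demethylases. The largest changes were taken only from called genes whose del-IDR and FL libraries did not overlap. Other list members named as examples, and genes named only to mark a run, were chosen after their values were seen. Intervals and floors cover counting error only. Alternatives were median-ratio and ERCC scaling, library sizes outside chromosomes 6 and 8, no filter, DESeq2 1.42.0, only the 4 KDM4B libraries, each replicate left out and a replicate block.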

Additional observations from a re-analysis of the deposited data

Results flagged for a closer look

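The effect of the deletion in KDM4B differed from its mean effect in KDM4A, KDM6A and KDM6B for 8153 genes in edgeR's quasi-likelihood test. Among the named genes, 6 had the smallest p for this difference, given here as the KDM4B log2 change minus the mean of the other 3. Cyp2b23, a cytochrome gene, differed by -3.48. Chac1, a glutathione-degrading enzyme, differed by 2.25, with changes of 1.57 for KDM4B, -1.10 for KDM4A, -1.11 for KDM6A and 0.16 for KDM6B. Slco2a1, a prostaglandin transporter, differed by 1.99 and the noncoding RNA Platr14 by 1.39. Atf7ip on chromosome 6 differed by -0.90, and Lpl on chromosome 8 by -1.61.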

How the results depend on the processing

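With ERCC scaling 2869 genes rose and 8591 fell, and outside chromosomes 6 and 8 it was 2709 and 7212. Median-ratio scaling gave 5419 rises and 5851 falls, DESeq2 5085 and 5520, library sizes outside chromosomes 6 and 8 5384 and 5879, and the 4 KDM4B libraries alone 5605 and 5837, so falls outnumbered rises in each. Leaving out 1 library gave 4572 to 4831 rises and 4139 to 4336 falls. The chromosome 6 median relative to the other chromosomes was -0.403 with ERCC scaling, -0.403 with the 4 libraries alone and -0.415 to -0.403 without 1 library, and that of chromosome 8 was -0.134 to -0.090 without 1 library.

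Of 170 named genes 166 were called, 155 of them in every alternative run. Kdm4c was at -0.18 and passed as lower with ERCC scaling. Relative to all genes, some list medians changed sign: small RNA ranged from -0.158 to 0.13 without 1 library, LIF and STAT3 targets from -0.011 to 0.18, interferon-stimulated genes from -0.088 to 0.15 and neural markers from -0.22 to 0.083, with 0.0011 for neural markers under ERCC scaling.

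Repeat families that rose numbered 1 with library sizes of the genes, 0 with ERCC scaling, 1 outside chromosomes 6 and 8 and 0 to 3 without 1 library. Those that fell numbered 34, 47, 13 and 5 to 7. Single copies that rose numbered 4671 with ERCC scaling, 2559 when only copies outside gene spans were fitted and 3303 to 3608 without 1 library, and those that fell 50008, 10544 and 12369 to 14536. The cause was not tested.

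Deviations of same-numbered del-IDR and FL libraries correlated at 0.12 for KDM4A, 0.13 for KDM4B and 0.14 for KDM6A, but at -0.0026 for KDM6B. Among all groups of KDM4A, KDM4B and KDM6A, also across demethylases, the correlations ran from 0.10 to 0.17. Those with a KDM6B group ran from -0.0026 to 0.034. The main fit did not take the replicate numbers as pairs, so a part shared by replicate number stays in its spread. With a replicate block 6102 genes rose and 5806 fell, 10 repeat families rose, and the relative chromosome 6 median was -0.402.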
